A study of Mus musculus with 4 samples.

Results

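The genes of the GDNF family were described across the cell classes of the injured, uninjured and neonatal mouse sciatic nerve. The 7 members were taken by gene name, but earlier results of these data were known when they were chosen. They are the ligands Gdnf, Artn (artemin) and Nrtn (neurturin), the co-receptors Gfra1, Gfra2 and Gfra3, and the receptor Ret. They are 7 of the 22716 genes listed in at least 1 of 4 single-cell count matrices. All 7 were listed in the uninjured and in both neonatal matrices, and 6 at 3 days post-injury (DPI), where Gfra3 was not listed.

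All cells came from wild-type CD1 mice and were captured by Drop-seq, which tags each mRNA molecule with a unique molecular identifier (UMI). The 3 DPI library was made from the distal nerve of adults with a unilateral resection, in which the distal end had been tucked away to prevent regrowth. The uninjured library was made from adult nerves of both sides. Neonatal nerve was prepared either at P3 to P4, by FACS of Hoechst-high cells that excluded propidium iodide (neonatal FACS), or at P2 to P3 with myelin removal beads (neonatal beads), which both adult libraries also went through. The libraries held 4513814 to 8123103 UMIs, and 2162 (3 DPI), 1837 (uninjured), 2190 (neonatal FACS) and 5419 (neonatal beads) cells were kept, with a median of 996 to 1797.5 UMIs per cell. Pairs of libraries shared 0 to 3 barcodes. Each group had 1 library, so that no difference between groups had a replicate check and none was tested. All comparisons at 3 DPI share the same 3 DPI library.

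GDNF family ligands are secreted proteins, distantly related to TGF-beta, that support the survival and axon growth of motor, sensory and autonomic neurons. Each ligand binds a preferred co-receptor held in the membrane by a lipid anchor, GDNF to the product of Gfra1, neurturin to that of Gfra2 and artemin to that of Gfra3, and the pair then engages and activates the tyrosine kinase RET. Schwann cells that have lost their axon are a known source of GDNF in peripheral nerve, and co-receptors can also be shed or act with the adhesion molecule NCAM.

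Cells were placed in classes from the marker genes of their clusters, and a class is therefore called Schwann-like, endoneurial-like and so on. No member gene was a marker, and the members were kept out of the genes used for clustering. Sox10 was found in 33.4% to 38.3% of the Schwann-like cells of the 4 libraries, where the summed level of the 7 Schwann markers was 4512 to 45171 CPM and all 7 had a UMI. Pecam1 was found in 75.3% to 81.1% of endothelial-like cells and Rgs5 in 60.7% to 95.3% of vascular smooth muscle (VSM)/pericyte-like cells. Pdgfra was found in 40.5% to 65.2% and Osr2 in 38.2% to 55.4% of endoneurial-like cells, which lie within the nerve fascicles. The endoneurial marker Wif1 was found in 72.1% of these cells at 3 DPI and in 0.77% to 1.90% elsewhere, so that outside the injured nerve the class rests on its other markers. The uninjured Schwann-like cells formed a non-myelinating and a myelinating cluster, whereas those at 3 DPI formed 1 cluster. In the neonate the Schwann-like class was held by different clusters in the 2 preparations, since a Ttyh1-led and a myelinating cluster were 94.7% and 93.5% FACS cells and a Scn7a-led and a Pou3f1-led cluster were 4.07% and 7.44% FACS cells.

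Levels are given as CPM, which is how many of every 1000000 UMIs counted in a class belonged to the gene, and the 95% interval of a level is the exact Poisson one. Shares of cells with a UMI carry an exact Clopper-Pearson 95% interval. Both cover counting error only and say nothing of the spread between animals. A gene was called higher or lower when the CPM ratio was at least 3 either way, provided that it was listed in both libraries and had at least 10 UMIs over them. Where a class held no UMI, 3 counts over the class were put in its place, the ratio is written as "at least", and the share or level that the class allows is given as that of 3 counts and not as the end of an exact interval.

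**Figure D1:**
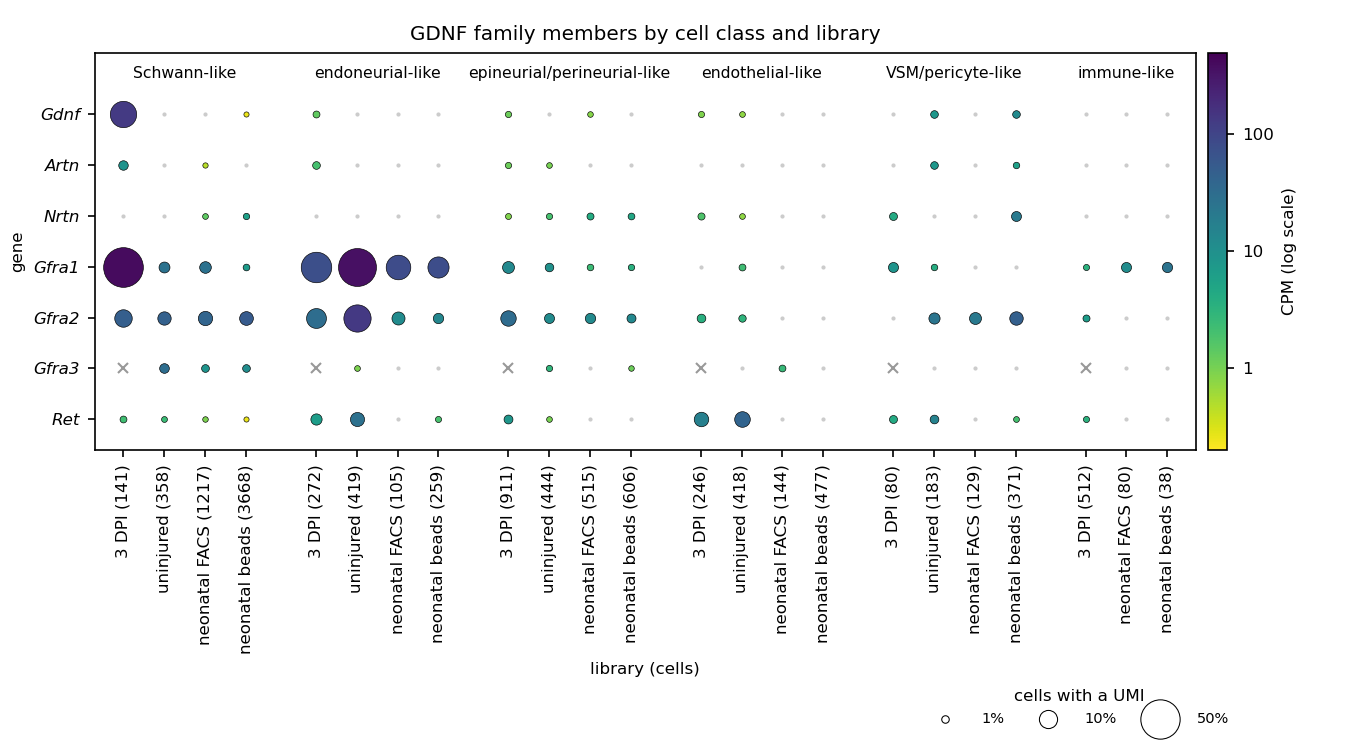
Levels of the 7 members (rows) in the main classes of each library (columns, number of cells in brackets, classes of 30 cells or more). Dot area follows the share of cells with a UMI and colour the CPM on a log scale, a small grey point is a count of 0 and a cross marks Gfra3 at 3 DPI, where it was not listed. The largest dots are Gfra1 in 3 DPI Schwann-like cells (51.1% of cells) and in uninjured endoneurial-like cells (46.5%).

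Gdnf, the founding ligand of the family, was found almost entirely in Schwann-like cells of the injured nerve. At 3 DPI, 31 of 141 Schwann-like cells had a UMI (22.0%, interval 15.5 to 29.7), with 59 UMIs and a level of 131 CPM (99.8 to 169). These cells were 6.52% of the library and held 89.4% of its 66 Gdnf UMIs. The signal did not come from a few cells, since 14 of the 31 had 1 UMI, 10 had 2 and 7 had 3 or more, with a highest count of 5. Immune-like cells, which should lack the gene, had 0 of 512 cells with a UMI, which allows a share of up to 0.586%, at a median of 893.5 UMIs per cell against 1925 in Schwann-like cells.

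Outside the 3 DPI Schwann-like cells Gdnf was at most a few molecules. None of the 358 uninjured Schwann-like cells had a UMI, which allows a share of up to 0.838%, and the same was true of the 1217 neonatal FACS Schwann-like cells (up to 0.247%). In the neonatal bead library 1 of 3668 Schwann-like cells had a UMI. The Gdnf level in Schwann-like cells was therefore at least 18.1-fold higher at 3 DPI than in the uninjured nerve, at least 94.9-fold higher than in neonatal FACS cells and 526-fold higher than in neonatal bead cells, where the interval on the single UMI runs from 90.8. It was at least 13.6-fold higher than in uninjured non-myelinating cells and at least 4.49-fold higher than in the 81 myelinating cells, whose small number sets that limit.

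The next levels of Gdnf were in VSM/pericyte-like cells, contractile and mural cells of vessels. In the neonatal bead library 4 of 371 of these cells held 6 UMIs (12.2 CPM, 4.49 to 26.6), and in the uninjured nerve 2 of 183 held 2 UMIs (7.95 CPM, 0.96 to 28.7). These levels overlap each other and lie below that of the 3 DPI Schwann-like cells. At 3 DPI none of 80 VSM/pericyte-like cells had a UMI, which allows up to 3.75% of cells, so a level like that of the other libraries was not detectable there. Mesenchymal-like cells at 3 DPI had 6 UMIs in 1183 cells (1.21 CPM, 0.44 to 2.63).

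Gdnf lies on chromosome 15 (7810846 to 7837575, plus strand, GRCm38, GENCODE vM21) and no other annotated gene overlapped it. RefSeq places 2 start sites for it, at 7810048 and 7813727. The first lies before the GENCODE start of the gene, and no GENCODE transcript of Gdnf held the bases after either site. The 250 bases before the first are shown because Gdnf is the member whose level differed most between the libraries. They were read from the RefSeq promoter table (GRCm38.p6, chr15:7809798-7810047, plus strand, 50.8% GC), and capitals mark a TATAAA and a match of TGACG on the opposite strand, the letters of a TATA box and of a short site bound by CREB family factors.
Gdnf, bases before the first start site: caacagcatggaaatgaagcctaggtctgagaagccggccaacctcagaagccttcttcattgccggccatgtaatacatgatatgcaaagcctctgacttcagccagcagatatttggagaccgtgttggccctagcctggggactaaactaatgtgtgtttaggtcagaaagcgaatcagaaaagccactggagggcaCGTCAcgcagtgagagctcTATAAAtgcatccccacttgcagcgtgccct
The TATAAA lies 31 to 26 bases and the TGACG 50 to 46 bases before the first RefSeq start. Of 32851 promoter windows of this length, 12.4% hold TATAAA and 17.8% hold TGACG on either strand. The letters TGANTCA of an AP-1 site, present in 6.75% of the windows, are not in this one, and the window before the second start holds no match of these 3 motifs. The letters CANNTG of an E-box, which 66.2% of the windows hold, were also searched for and matched in both Gdnf windows. A match of letters is a description of the window and not a measured site.

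**Figure D2:**
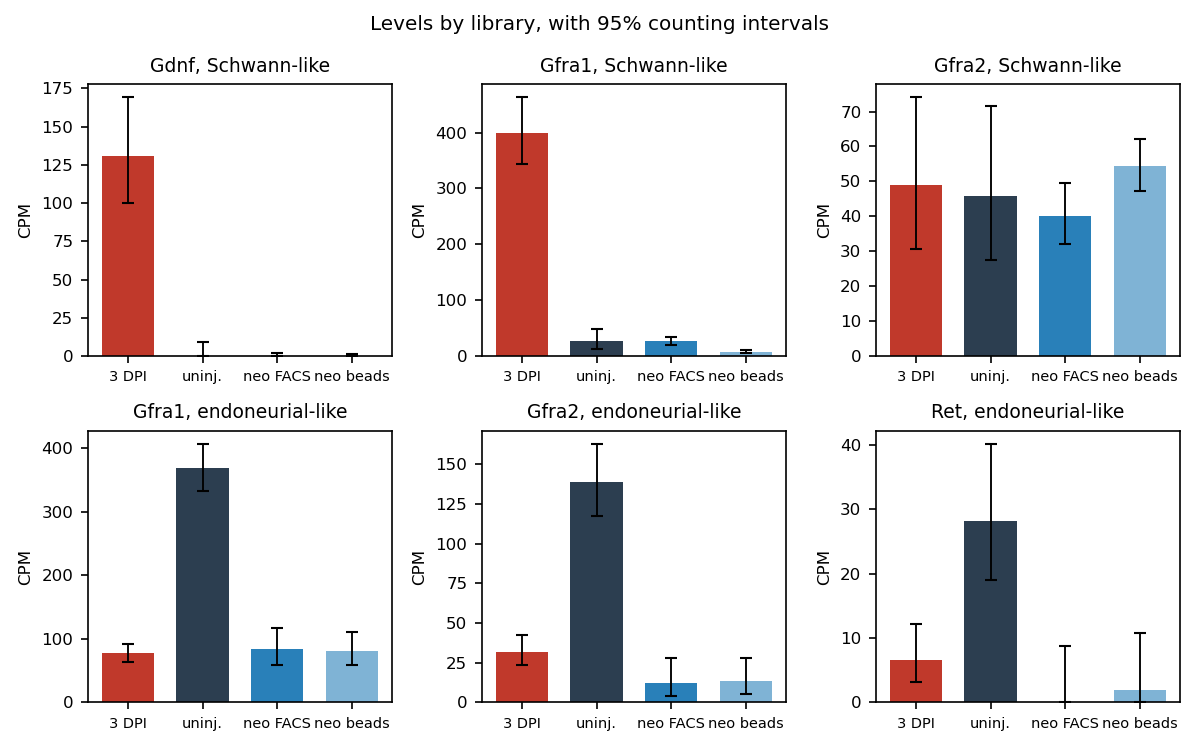
CPM (vertical axes, from 0) of Gdnf, Gfra1 and Gfra2 in Schwann-like cells (top) and of Gfra1, Gfra2 and Ret in endoneurial-like cells (bottom), 1 bar for each library, with exact Poisson 95% counting intervals as error bars. The 3 DPI bar is highest for Gdnf (131) and Gfra1 (400.1) in Schwann-like cells, while the uninjured bar is highest for all 3 genes in endoneurial-like cells.

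Artn, the ligand of the Gfra3 co-receptor, was rare in every library. At 3 DPI, 3 of 141 Schwann-like cells held 4 UMIs (2.13% of cells, 0.44 to 6.09, 8.89 CPM, 2.42 to 22.8), which was its highest level. Endoneurial-like cells at 3 DPI held 3 UMIs in 272 cells (2.0 CPM, 0.41 to 5.84). The uninjured nerve had 2 UMIs in VSM/pericyte-like cells (7.95 CPM, 0.96 to 28.7) and none in 358 Schwann-like cells. The neonatal bead library had 3 UMIs in VSM/pericyte-like cells (6.11 CPM, 1.26 to 17.9) and none in 3668 Schwann-like cells. The intervals of the 4 levels overlap. The neonatal bead Schwann-like cells, whose count of 0 allows up to 0.748 CPM, lie below the 3 DPI Schwann-like level. Artn lies on chromosome 4 (117926162 to 117929763, minus strand, GRCm38, GENCODE vM21). It did not reach 10 UMIs in any comparison and no fold is given for it.

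Nrtn, the ligand of the Gfra2 co-receptor, was found mostly in the neonatal bead library, which also had the most cells. The neonatal bead library held 38 of the 55 Nrtn UMIs in filtered cells. Its highest level was in the VSM/pericyte-like cells of that library, where 9 of 371 cells held 10 UMIs (2.43% of cells, 1.12 to 4.55, 20.4 CPM, 9.77 to 37.5), against 0 of 477 endothelial-like cells. Schwann-like cells there had 24 UMIs in 18 of 3668 cells (5.98 CPM, 3.83 to 8.90), and epineurial-like cells of the neonatal FACS library, fibroblasts of the outer nerve sheath, had 5 UMIs in 4 of 267 cells (10.1 CPM, 3.29 to 23.6). The epineurial-like interval overlaps that of the VSM/pericyte-like cells, and the Schwann-like one ends below it. Neonatal FACS held 8 Nrtn UMIs in all, with none in its 129 VSM/pericyte-like cells and 3 in its 1217 Schwann-like cells. Most neonatal UMIs of Nrtn thus came from the bead preparation.

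In the adult nerve Nrtn had 6 UMIs at 3 DPI and 3 in the uninjured library. None of the 141 and 358 Schwann-like cells had a UMI, which allows shares of up to 2.13% and 0.838%, so that a share like that of the neonatal bead Schwann-like cells (0.491%) was not detectable. Nrtn was 4.66-fold lower in 3 DPI than in neonatal bead VSM/pericyte-like cells, a ratio of 0.21 whose interval of 0.005 to 1.51 includes 1. Nrtn lies on chromosome 17 (56751325 to 56757530, minus strand, GRCm38, GENCODE vM21).

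Gfra1, the co-receptor that GDNF prefers, was found in the same Schwann-like cells of the injured nerve. At 3 DPI, 72 of 141 Schwann-like cells had a UMI (51.1%, 42.5 to 59.6), with 180 UMIs and 400.1 CPM (344 to 463). One cell held 24 of these UMIs, the next 8, and without that cell the level was 376 CPM. The uninjured Schwann-like cells had 11 UMIs in 11 of 358 cells (3.07%, 1.54 to 5.43, 26.5 CPM, 13.2 to 47.5), the neonatal FACS cells 26.7 CPM (20.3 to 34.5) and the neonatal bead cells 6.98 CPM (4.64 to 10.1). The 3 DPI level does not overlap any of these, and immune-like cells at 3 DPI had a UMI in 2 of 512 cells (0.391%).

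The Gfra1 level in 3 DPI Schwann-like cells was 15.1-fold higher than in the uninjured nerve (8.23 to 30.7), 15.0-fold higher than in neonatal FACS (11.1 to 20.5) and 57.3-fold higher than in neonatal bead cells (38.3 to 88.7). Against the uninjured nerve 3 of the 7 members could be compared in Schwann-like cells, and 2 of them, Gdnf and Gfra1, were at least 3-fold higher at 3 DPI, where 10.1% of the 9120 genes compared were higher by that fold. The same 2 members were higher against neonatal FACS, where 3 were compared and 7.75% of genes were higher, and against neonatal beads, where 4 were compared and 7.43% were higher. In these 3 comparisons no member was 3-fold lower, as 8.56%, 7% and 6.29% of genes were. Gdnf reached 10 UMIs in each of them only through the 3 DPI cells. Its call could thus hardly differ, and the counts of members are not evidence beyond the levels. The summed level of the 7 Schwann markers was 4512 CPM at 3 DPI, 28144 in the uninjured, 45171 in the neonatal FACS and 8737 in the neonatal bead Schwann-like cells, and its part in these ratios was not tested. All 5 mesenchymal markers had UMIs in Schwann-like cells, with a summed level of 2978 CPM at 3 DPI and 3271 in the uninjured nerve.

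Among the Schwann-like cells of the uninjured and neonatal FACS libraries, the Gfra1 level was higher in the myelinating than in the non-myelinating cluster. In the uninjured nerve it was 68.1 CPM (27.4 to 140.4) in 81 myelinating and 12.8 CPM (3.50 to 32.9) in 277 non-myelinating cells, intervals that overlap. In the neonatal FACS library it was 46.2 CPM (32.4 to 64.0) in 432 myelinating and 15.3 CPM (9.33 to 23.6) in 684 non-myelinating cells, intervals that do not. The neonatal bead library did not show this order, with 1 UMI in 30 myelinating cells, 9.10 CPM (5.77 to 13.7) in 2382 non-myelinating cells and 2.77 CPM (0.75 to 7.09) on 4 UMIs in 1256 cells of a cluster led by Pou3f1, a transcription factor of cells that are about to myelinate. The 3 DPI cells were 5.87-fold (2.79 to 14.8) above the uninjured myelinating and 31.2-fold (12 to 116) above the uninjured non-myelinating cells. Against the non-myelinating cells 2 of 3 members compared were higher and none lower (10.2% and 8.01% of 8800 genes), and against the myelinating cells all 3 were higher (15% higher and 7.21% lower of 7653 genes), Gfra2 by 5.02-fold on 22 against 1 UMI (0.81 to 207).

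The other site of Gfra1 was the endoneurial-like mesenchymal cell, and there the order of the adult libraries was the opposite. In the uninjured nerve 195 of 419 endoneurial-like cells had a UMI (46.5%, 41.7 to 51.4), with 393 UMIs and 368 CPM (333 to 407), and they held 94.0% of the library's Gfra1 UMIs. At 3 DPI, 81 of 272 had a UMI (29.8%, 24.4 to 35.6), with 116 UMIs and 77.2 CPM (63.8 to 92.6). The neonatal endoneurial-like cells were at 83.7 CPM (58.3 to 116, FACS) and 81.4 CPM (58.7 to 110.1, beads). The 3 lower levels overlap, and the uninjured level overlaps that of the 3 DPI Schwann-like cells.

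Gfra1 in endoneurial-like cells was 4.77-fold lower at 3 DPI than in the uninjured nerve, a ratio of 0.21 (0.17 to 0.26), and the ratios of 0.92 (0.63 to 1.39) to neonatal FACS and 0.95 (0.66 to 1.38) to neonatal bead cells include 1 and ranged up to 1.70 and 1.77 over the processing alternatives. The endoneurial-like cells were deeper at 3 DPI (a median of 4662 UMIs) than uninjured (2157), and thinned to 500 UMIs per cell the share was 3.57% against 17.2%. The summed level of the 7 Schwann markers in endoneurial-like cells was 140 CPM at 3 DPI, 423 uninjured, 1177 in neonatal FACS and 469 in neonatal beads. A UMI of Sox10, which a minority of Schwann-like cells showed, was present in 2 of the 419 uninjured cells and 2 of the 272 cells at 3 DPI. Among the cells without one, Gfra1 was at 370.4 CPM in 417 uninjured and 78.2 CPM in 270 cells at 3 DPI. In the same way, the 134 Schwann-like cells at 3 DPI without a UMI of Wif1, Osr2 or Meox1 had Gfra1 at 382 CPM and Gdnf at 127 CPM.

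Lower levels of Gfra1 were found in other mesenchymal-like cells at 3 DPI. A dividing cluster led by Top2a, Prc1 and Il1rl1 had 31 UMIs in 22 of 156 cells (14.1%, 9.05 to 20.6, 25.9 CPM, 17.6 to 36.7), at a median of 5370.5 UMIs per cell. The joined epineurial/perineurial-like class holds every mesenchymal-like cell that is not endoneurial-like, the dividing cluster included. It was at 12.7 CPM (9.24 to 17.1) at 3 DPI and 9.95 CPM (4.77 to 18.3) uninjured, levels that overlap. At 3 DPI 651 of its 911 cells were in clusters that no sheath marker list named, and they held 38 of its 44 Gfra1 UMIs. Only the 3 DPI class held such cells, so its make-up differs from that of the other libraries. The adult ratio of 1.28 was 0.28, a 3.57-fold lower level at 3 DPI, when cells were assigned by their own marker UMIs. The same class was at 2.45 and 3.52 CPM in the neonatal FACS and bead libraries on 3 UMIs each. Endothelial-like cells had 0 of 246 cells with a UMI at 3 DPI and 3 of 418 uninjured.

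Gfra1 lies on chromosome 19 (58235604 to 58455909, minus strand, GRCm38, GENCODE vM21). It overlaps the antisense gene Gm16277 over 444 bases at its 3′ end, and the sources used here do not say whether the counting used strand. Gm16277 itself had 0 to 5 UMIs in a library, against 77 to 437 of Gfra1.

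**Figure D3:**
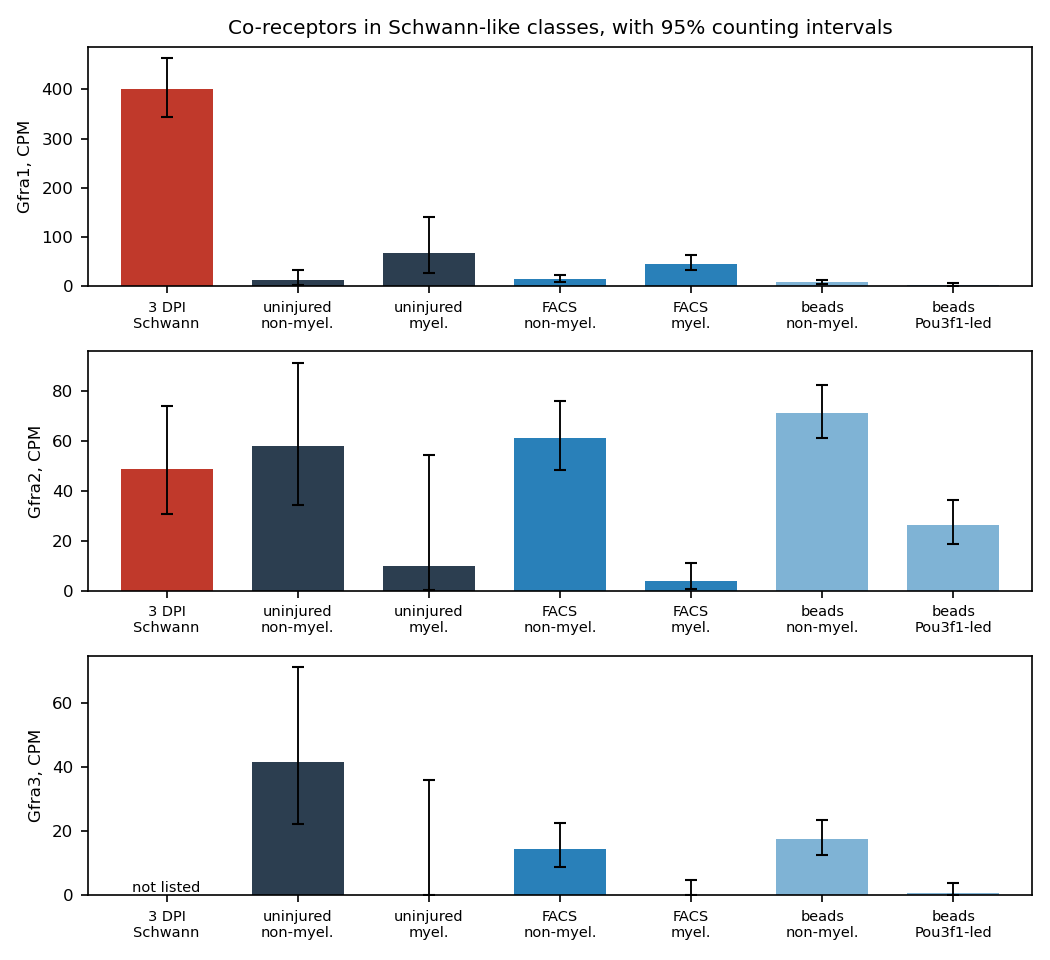
CPM (vertical axes, from 0) of Gfra1, Gfra2 and Gfra3 in the 3 DPI Schwann-like cells and in the Schwann-like clusters of the other libraries, with exact Poisson 95% counting intervals as error bars. Gfra1 is highest at 3 DPI (400.1), Gfra2 is lowest in the myelinating clusters (9.73 and 3.85), and Gfra3 has no UMI in the myelinating clusters and was not listed at 3 DPI.

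Gfra2, the co-receptor that neurturin prefers, was found in Schwann-like cells of every library, between 40.1 and 54.3 CPM. It was at 48.9 CPM (30.6 to 74.0) at 3 DPI on 22 UMIs in 13 of 141 cells, 45.8 CPM (27.6 to 71.6) in the uninjured nerve, 40.1 CPM (32.1 to 49.4) in neonatal FACS and 54.3 CPM (47.4 to 62.1) in neonatal bead cells. The 3 DPI level was 1.07 times the uninjured one, with an interval of 0.55 to 2.08. A difference of up to about that size in either direction is thus compatible with the counts.

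Within the Schwann-like class of the uninjured and neonatal FACS libraries, the Gfra2 level was lower in the myelinating than in the non-myelinating cluster. In the uninjured nerve it was 57.7 CPM (34.2 to 91.2) in non-myelinating cells and rested on 1 UMI in the myelinating cells (9.73 CPM, 0.25 to 54.2), intervals that overlap. In neonatal FACS cells it was 61.1 CPM (48.4 to 76.0) in non-myelinating and 3.85 CPM (0.79 to 11.3) in myelinating cells, which do not overlap. In the neonatal bead library it was 91.2 CPM (75.6 to 109.2) in the Scn7a-led cluster and 26.3 CPM (18.6 to 36.1) in the Pou3f1-led cluster, where Gfra1 was also lower than in the non-myelinating cells, and 0 of its 30 myelinating cells had a UMI. At 3 DPI the 38 Schwann-like cells with a UMI of Mki67 or Top2a, genes of dividing cells, had 17 of the 22 Gfra2 UMIs (81.4 CPM against 20.7 in the other 103). These cells were also deeper, with a median of 3645.5 against 1668 UMIs, and no such gap was seen in neonatal FACS (35.2 against 41.0 CPM) or bead cells (47.8 against 56.4 CPM).

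The highest level of Gfra2 was in uninjured endoneurial-like cells. There 99 of 419 cells had a UMI (23.6%, 19.6 to 28.0), with 148 UMIs and 139 CPM (117 to 163). At 3 DPI it was 32.0 CPM (23.6 to 42.4) in 33 of 272 cells, and in the neonate 12 CPM (3.88 to 27.9, FACS) and 13.6 CPM (5.46 to 28.0, beads). The uninjured level lies above all others, and the 3 DPI level overlaps both neonatal ones.

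Gfra2 in endoneurial-like cells was 4.34-fold lower at 3 DPI than in the uninjured nerve, a ratio of 0.23 (0.16 to 0.32). With Gfra1 and Ret, all 3 of the 7 members that could be compared in these cells were at least 3-fold lower at 3 DPI, where 4.52% of the 11136 genes compared were lower by that fold and 9.21% higher. The calls of Gfra2 and Ret, though not that of Gfra1, were lost when cells were assigned by their own marker UMIs. Against neonatal FACS none of 3 was past the fold in either direction (9.56% of genes higher and 4.19% lower), and against neonatal beads only Ret was (9.48% of genes higher and 4.3% lower), by 3.43-fold on 10 against 1 UMI (0.49 to 149). The Gfra2 ratio to neonatal FACS, 2.67, passed 3-fold in 3 of 9 alternatives (up to 3.62), and that to neonatal beads, 2.35, in 1 of 9 (3.37). The summed level of the 5 mesenchymal markers in endoneurial-like cells was 35863 CPM at 3 DPI and 92227 uninjured. The 5 endoneurial markers summed to 1633 and 1339 CPM, with Osr2 lower at 3 DPI (214 against 696) and Wif1 higher (882 against 10.3). The part of these marker levels in the member ratios was not tested.

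Other classes also held Gfra2. The dividing mesenchymal-like cluster at 3 DPI had 68 UMIs in 32 of 156 cells (20.5%, 14.5 to 27.7, 56.8 CPM, 44.1 to 72.0), the highest level of any class of that library together with the Schwann-like cells, whose interval it overlaps. VSM/pericyte-like cells had 46.9 CPM (29.7 to 70.3) in the neonatal bead library, 21.2 in neonatal FACS and 23.8 in the uninjured nerve, and 0 of 80 cells at 3 DPI, which was at least 3.57-fold lower than in the bead library. There 2 members could be compared, Nrtn and Gfra2, and both were lower at 3 DPI, where 5.99% of 8316 genes were lower and 5.05% higher. Both reached 10 UMIs only through the bead cells, with 10 (Nrtn) and 23 (Gfra2) UMIs against 1 and 0 at 3 DPI. Their calls could thus hardly differ, and the count of members is not evidence beyond the levels. The 67 uninjured perineurial-like cells were at 37.2 CPM (12.1 to 86.9), and immune-like cells at 3 DPI had a UMI in 4 of 512 cells (0.781%). Gfra2 lies on chromosome 14 (70890120 to 70979838, plus strand, GRCm38, GENCODE vM21), with no overlapping gene.

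Gfra3, the co-receptor that artemin prefers, was found mainly in the non-myelinating Schwann-like clusters. In the uninjured nerve 8 of 277 non-myelinating cells held 13 UMIs (2.89%, 1.25 to 5.61, 41.7 CPM, 22.2 to 71.3) and none of 81 myelinating cells had one (up to 29.2 CPM). In neonatal FACS, 14 of 684 non-myelinating cells held 19 UMIs (14.5 CPM, 8.74 to 22.7) and none of 432 myelinating cells had one (up to 3.85 CPM). The neonatal bead library had 33 UMIs in the Scn7a-led cluster (25.3 CPM, 17.4 to 35.5) and 1 in the Pou3f1-led cluster (0.69 CPM, 0.02 to 3.86). The neonatal pairs do not overlap, while the limit of the uninjured myelinating cells lies within the non-myelinating interval. With cells assigned by their own marker UMIs, no uninjured non-myelinating cell had Gfra3.

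Schwann-like cells held 76.5%, 95% and 97.8% of the Gfra3 UMIs of the uninjured, neonatal FACS and neonatal bead libraries. Endothelial-like cells had 0 of 418, 1 of 144 and 0 of 477 cells with a UMI. Mesenchymal-like cells held 4 of the 17 uninjured UMIs, 2 of them in the 67 perineurial-like cells. In the neonatal libraries they held 0 (FACS) and 1 (beads). No level of Gfra3 is given at 3 DPI, where the gene was not listed.

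Ret, the tyrosine kinase shared by all of these ligands, was not found at more than 1 UMI in the Schwann-like cells of either adult library. Among classes of at least 50 cells its highest level was in uninjured endothelial-like cells, with 54 UMIs in 30 of 418 cells (7.18%, 4.89 to 10.1, 41.1 CPM, 30.9 to 53.7). At 3 DPI endothelial-like cells had 19 UMIs in 15 of 246 cells (6.10%, 3.45 to 9.86, 17.0 CPM, 10.2 to 26.6). Neonatal endothelial-like cells had none in 144 (FACS, up to 8.05 CPM) and none in 477 (beads, up to 2.96 CPM). The adult levels do not overlap, and both intervals lie above the limits of the neonatal cells.

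Ret was the only member that could be compared in endothelial-like cells. The 3 DPI level was 0.41 (0.23 to 0.71) of the uninjured one, a 2.42-fold difference that does not reach the 3-fold call (4.93% of genes higher and 3.06% lower), although the mean of the per-cell CPM gave a ratio of 0.22. It was at least 5.75-fold higher than in neonatal bead cells, where 7.27% of genes were higher by 3-fold and 3.69% lower. It was at least 2.11-fold higher than in neonatal FACS cells (9.43% of genes higher and 2.9% lower), whose number limits that bound, and 6.78-fold higher without doublet removal. Among 3 DPI cells the share of immune-like cells with a Ret UMI was 0.391% (2 of 512).

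The endothelial signal of Ret in the uninjured nerve came from 1 of 3 endothelial-like clusters. The cluster led by Selp, Lrg1 and Darc, the first and last of which are known from venules, held 51 of the 54 UMIs in 27 of 132 cells (20.5%, 13.9 to 28.3, 95.3 CPM, 71.0 to 125). The clusters led by Slco1a4, a transporter of barrier endothelium, and by Rbp7 were at 4.35 CPM (0.53 to 15.7) and 3.15 CPM (0.08 to 17.6). Among all uninjured endothelial-like cells, the 126 with a UMI of Selp or Darc had Ret in 25 cells (19.8%, 85.1 CPM) and the other 292 in 5 (1.71%, 6.79 CPM), at a median of 2355.5 and 1771.5 UMIs. Selp and Darc were taken from the leading genes of that cluster, so this split of the same cells restates its result.

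**Figure D4:**
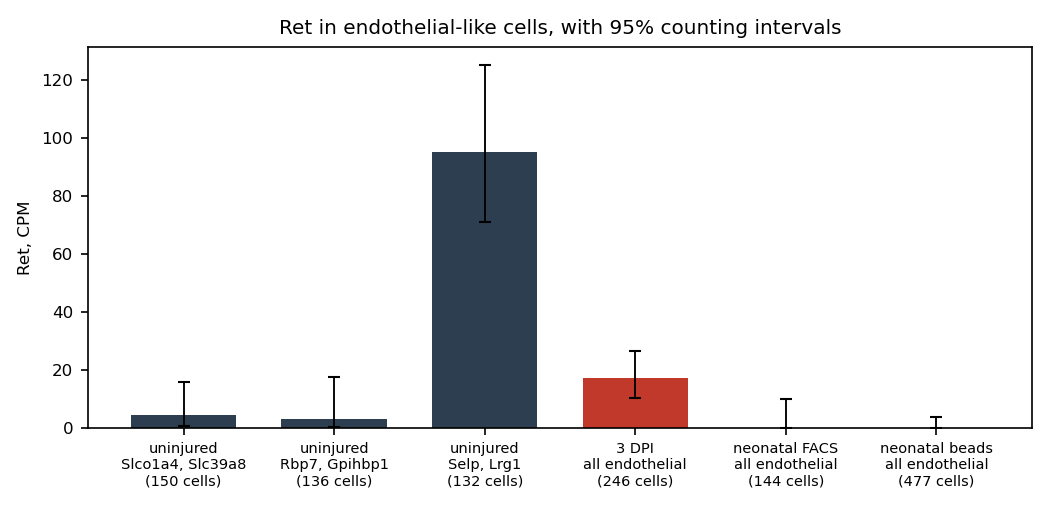
Ret CPM (vertical axis, from 0) in the 3 uninjured endothelial-like clusters, named by their leading genes, and in all endothelial-like cells of the other libraries, with exact Poisson 95% counting intervals as error bars. The Selp and Lrg1 cluster stands at 95.3, the 3 DPI cells at 17.0, and both neonatal libraries at 0.

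Whether cells of that kind were present at 3 DPI was not tested, and only Selp and Darc were read there. Selp was at 549 CPM and Darc at 463 CPM in 3 DPI endothelial-like cells, against 409.8 and 545 in the uninjured nerve, 10.7 and 59.1 in neonatal FACS and 50.3 and 200.1 in neonatal bead cells. The 109 endothelial-like cells at 3 DPI with a UMI of Selp or Darc had Ret in 10 cells (9.17%, 4.49 to 16.2, 19.5 CPM), less than the 19.8% (13.3 to 27.9) of the uninjured nerve with intervals that overlap in part, and the other 137 in 5 (3.65%, 12.5 CPM). Only 6 neonatal FACS and 68 neonatal bead endothelial-like cells had a UMI of either gene, and none of them had Ret.

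Endoneurial-like cells of the adult nerve also held Ret. The uninjured cells had 30 UMIs in 24 of 419 cells (5.73%, 3.70 to 8.40, 28.1 CPM, 19.0 to 40.1) and those at 3 DPI 10 UMIs in 9 of 272 cells (6.66 CPM, 3.19 to 12.2), a 4.22-fold lower level with a ratio of 0.24 (0.10 to 0.50). The neonatal cells had 0 of 105 and 1 of 259. VSM/pericyte-like cells of the uninjured nerve held 4 Ret UMIs in 3 of 183 cells. Among whole classes of at least 50 cells the highest levels of Ret were, in order, uninjured endothelial-like, then uninjured endoneurial-like and 3 DPI endothelial-like cells, with overlapping intervals between neighbours. A single UMI in the 40 neutrophil-like cells at 3 DPI (45.5 CPM, 1.15 to 254) was left out of this order.

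In the epineurial/perineurial-like cells Ret stood the other way, with 28 UMIs at 3 DPI (8.09 CPM, 5.38 to 11.7) and 1 UMI in the uninjured nerve (0.99 CPM, 0.03 to 5.54), an 8.13-fold difference (1.34 to 333). Of the 28 UMIs 20 were in cells that no sheath marker list named, which only the 3 DPI class held. Ret was 1 of 3 members compared that was called higher, where 8.51% of genes were higher and 3.64% lower. Assigned by the cells' own marker UMIs, the ratio was 0.97, and without doublet removal it was 2.08. Against neonatal FACS, Gfra1 (5.19-fold) and Ret (at least 3.30-fold) of 3 members were higher, where 10.1% of genes were higher and 3.61% lower, and against neonatal beads Gfra1 (3.61-fold), where 9.69% were higher and 4.56% lower. These calls depend on the processing, since that of Ret was lost in 4 of 8 alternatives (down to 2.31), that of Gfra1 against beads in 6 of 9 (down to 1.28) and that of Gfra1 against FACS in 2 of 9 (down to 1.41). Ret lies on chromosome 6 (118151745 to 118197718, minus strand, GRCm38, GENCODE vM21), with no overlapping gene.

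Ligand, co-receptor and receptor were also counted in the same cells. Of the 31 Gdnf-positive Schwann-like cells at 3 DPI, 25 also had a UMI of Gfra1 (80.6%), against 42.7% of the 110 cells without Gdnf. The Gdnf-positive cells had a median of 4497 UMIs and the others 1528, and the part of this depth gap in the overlap was not tested. Gdnf was found in 15 of the 38 cells with a UMI of Mki67 or Top2a (39.5%, 168 CPM) and in 16 of the 103 others (15.5%, 99.6 CPM), again at unequal depth. Gfra1 was at 393 and 407 CPM in the same 2 sets of cells.

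Ret was too rare in Schwann-like cells to be read beside the co-receptors. A UMI of at least 1 co-receptor was present in 77 of the 141 Schwann-like cells at 3 DPI (54.6%), but a Ret UMI in only 1 of the 141, which was not among the 77. In the uninjured endoneurial-like cells 244 of 419 had a co-receptor UMI (58.2%) and 15 of the 24 Ret-positive cells were among them. At 3 DPI 100 of 272 had one (36.8%), among them 7 of the 9 Ret-positive cells. Endoneurial-like cells with both Gfra1 and Ret had a median of 12653 UMIs at 3 DPI and 4779.5 uninjured. The whole class had 4662 and 2157, and the part of depth in this overlap was not tested. In uninjured endothelial-like cells 1 of 30 Ret-positive cells had a co-receptor UMI. Gfra1 and Gfra2 were found together in 51 uninjured endoneurial-like cells, where independent detection would give 46.1.

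Genes that act beside or downstream of RET were read from lists, by the same 3-fold rule. In Schwann-like cells at 3 DPI against the uninjured nerve, none of the 4 other ligands and co-receptors (Pspn, Gdf15, Gfra4, Gfral) could be compared. Of 5 alternative receptors and binding proteins 4 could be compared, none was higher and 1 was lower, Gas1, a RET-binding membrane protein, at 8.89 against 41.0 CPM. Ncam1, which encodes the alternative GDNF receptor NCAM, was at 178 CPM at 3 DPI and 294 CPM in the uninjured nerve (ratio 0.60, 0.45 to 0.81).

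Of 16 adaptors and kinases that bind receptor tyrosine kinases 11 could be compared, and 2 were higher and 3 lower. Dok4, an adaptor that binds active RET, was at 140.0 CPM at 3 DPI with 63 UMIs and had no UMI in the uninjured Schwann-like cells (at least 19.3-fold higher), and Shc1 was 3.92-fold higher (1.28 to 16.0). Against the uninjured nerve Dok4 thus reached 10 UMIs through the 3 DPI cells alone. Dok4 was at 4.61 CPM in neonatal FACS and 3.74 CPM in neonatal bead Schwann-like cells. Gab1 (ratio 0.31), Sos1 (0.24) and Pik3r1 (0.33) were lower. Of 9 feedback regulators and ETS targets 5 could be compared and 1 was lower, the ERK phosphatase Dusp6, at 167 against 1122 CPM. The median log2 ratio was -0.06 over the adaptors and -0.12 over the feedback genes, against 0.11 over all genes compared, of which 10.1% were higher and 8.56% lower.

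A list of regulators and ligands of repair Schwann cells, to which Gdnf is usually counted, was read in the same way. Of 14 genes 8 could be compared, of which 6 were higher and 1 lower, with a median log2 ratio of 3.65. Several ligands of the list, Btc, Fgf5, Clcf1 and Ucn2 among them, were singled out by the study for their levels in these same libraries, so the count is not independent evidence of a direction. Among those higher were the transcription factor Runx2 (56.7-fold, 15.4 to 473), the growth cone protein Gap43 (11.4-fold), the EGF family ligand Btc (at least 80.2-fold), Fgf5 (at least 10.1-fold) and the cytokine Clcf1 (at least 13.8-fold). Btc, Fgf5 and Clcf1 had no UMI in the uninjured Schwann-like cells and reached 10 UMIs through the 3 DPI cells alone. Their calls against the uninjured nerve could thus hardly differ. The same 3 DPI cells bring these genes past that limit against the neonatal libraries, and the counts over the list are not evidence beyond the levels. Jun, the regulator of the repair programme, was lower, at 2094 CPM at 3 DPI and 8437 CPM in the uninjured Schwann-like cells. Jun was also lower in endoneurial-like cells, at 1996 against 9837 CPM. Against neonatal FACS all 10 genes of the list that could be compared were higher, Jun among them at 3.76-fold, where 7.75% of all genes were, and against neonatal beads 7 of 9 were, where 7.43% of all genes were.

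**Figure D5:**
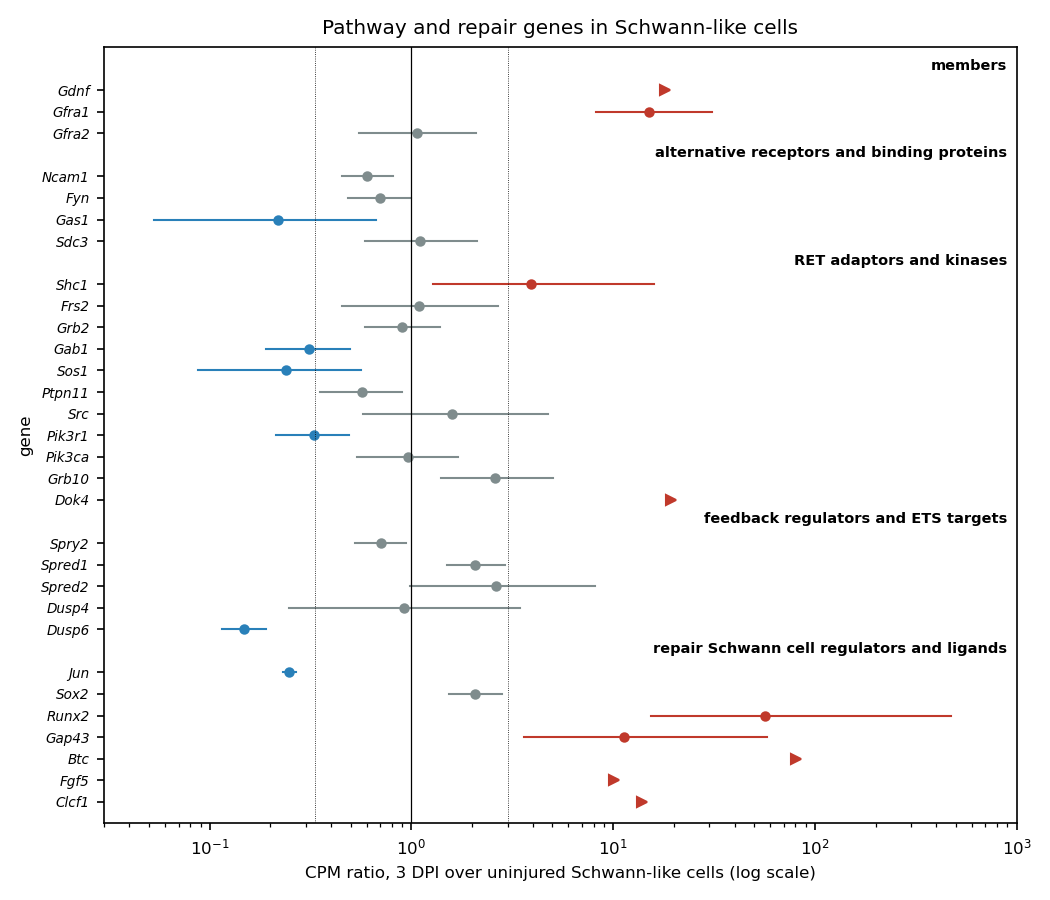
CPM ratios of 3 DPI over uninjured Schwann-like cells (horizontal axis, log scale) for the members and the list genes shown, with exact conditional 95% counting intervals. Triangles are lower bounds where the uninjured class had no UMI, dotted lines mark 3-fold, and red and blue mark genes past it. Gdnf (at least 18.1) and Gfra1 (15.1) lie with Runx2 and Btc on the right, and Dusp6 (0.15) and Jun (0.25) on the left.

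The same lists were read in endoneurial-like cells at 3 DPI against the uninjured nerve, where 9.21% of all genes compared were higher and 4.52% lower, so that most genes of any kind were within 3-fold. None of 5 alternative receptors was past the fold. Of 14 adaptors and kinases compared 1 was lower, Pik3r1 (ratio 0.30), and of 8 feedback genes 1 was higher, the Ras pathway inhibitor Spred1 (4.05-fold, 3.30 to 5.0, 417 against 103 CPM). Of the other ligands Gdf15, which signals through a relative of these co-receptors, was lower (3.33 against 20.6 CPM). The repair list had 6 genes compared, of which 2 were higher, among them the cytokine Lif (5.80-fold), and Jun was lower. The median log2 ratio over all genes compared was 0.23.

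The likeness of other genes to each member was taken as Pearson's r of log2(CPM + 1) over 31 class-by-library profiles of at least 50 cells (23 for Gfra3), among 11988 genes. It is a description without a test, because the profiles share libraries and depth. The genes most like Gdnf were Ucn2 (r = 0.74), Tmod1 (0.64), Clcf1 (0.58), Fosl1 (0.58) and Btc (0.58), and Ucn2, Clcf1 and Btc are on the repair list. Those most like Gfra1 were Ank (0.76), Sec11c (0.68), the Schwann cell transcription factor Sox8 (0.68), Vimp (0.68) and Nipal1 (0.67).

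Among the 5 genes most like Gfra2 were Rnd3 (0.72), Entpd2 (0.70), Tenm3 (0.69) and Acaca (0.68). Gfra3 was closest to Fkbp2 (0.81), Add1 (0.77), Prdx6 (0.77), Tle3 (0.74) and Tbc1d10a (0.71). Ret was closest to Lrg1 (0.70), which also led its endothelial-like cluster, then Hlf (0.70), Gabarapl1 (0.69), Coq10b (0.68) and Jund (0.67). Nrtn, on 55 UMIs, was closest to Brd3 (0.61), and Artn with 18 UMIs was below the 30 required.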

How the data were processed

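The authors aligned Drop-seq reads following the Drop-seq Alignment Cookbook (aligner version and annotation not given in the sources used here), and deposited raw UMI counts per gene and barcode (mm10, per the submitters' notes). A matrix lists a gene only if it had at least 1 UMI. No column of samples was left unused. Libraries at 9 DPI are not analysed here.

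Cells with at least 200 genes, at most 10% mitochondrial and at most 5% hemoglobin UMIs were kept, and the 5% with the highest doublet score in each library were removed (scrublet in scanpy 1.11.5). Counts were normalized with pooled size factors (scran 1.30.0) and clustered in Seurat 5.3.0 (R 4.3.3) (20 principal components of 2000 variable genes, resolution 0.4), with both neonatal libraries together. The variable genes excluded known ligands, the members and the listed genes. Clusters were named from marker lists. CPM, shares, exact intervals and ratios were computed in Python 3.11.15 with scipy 1.17.1, and the intervals and calls were tested on simulated data. UMIs per cell differ between classes, so shares were also taken after thinning each cell to 500 UMIs, leaving out shallower cells. Each group had 1 library, so no test was made.

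All 7 members are named in every class. Listed genes are named when past 3-fold, and the 5 most alike genes when the member had 30 UMIs. A few genes that these rules name are not reported here, though counts over lists include them. The members, lists and markers were chosen with earlier results of these data known. Of the 7 members 4 matched the RefSeq promoter table.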

Additional observations from a re-analysis of the deposited data

Results flagged for a closer look

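Gfra1 moved in opposite directions in 2 classes of the same pair of libraries. In Schwann-like cells it was 15.1-fold higher at 3 DPI than in the uninjured nerve, and in endoneurial-like cells it was 4.77-fold lower. With 1 library in each group the difference between the classes was not tested. It is noted because the counting intervals of both ratios lie wholly on opposite sides of 1 (8.23 to 30.7 and 0.17 to 0.26), and because summing the whole library hides it, since all cells together were at 46.8 CPM at 3 DPI and 103 CPM in the uninjured nerve.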

How the results depend on the processing

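No paired analysis was possible because each group has 1 library and no result comes from a test. With 7 to 9 alternatives for each ratio, Gdnf in 3 DPI over uninjured Schwann-like cells stayed at or above 14.9, Gfra1 there between 13.1 and 18.4, and Gfra1 in endoneurial-like cells between 4.75-fold and 6.01-fold lower. Thinned to 500 UMIs the shares were 4.80% for Gdnf and 22.4% for Gfra1 in 3 DPI Schwann-like cells, 0.310% for Nrtn in neonatal bead VSM/pericyte-like cells, 7.75% for Gfra2 in uninjured endoneurial-like cells and 1.46% for Ret in uninjured endothelial-like cells, as fewer UMIs per cell must give. With cells assigned by their own marker UMIs, the uninjured non-myelinating Schwann-like cells had 0 CPM of Gfra3 in 0% of cells, the endoneurial-like ratios were 0.166 for Gfra1 and 0.336 for Gfra2, the latter no longer past 3-fold, and Ret in endoneurial-like cells was 2.62-fold lower and likewise lost its call. Under the same setting Ret in 3 DPI over uninjured epineurial/perineurial-like cells turned from 8.13 to 0.974. With the mean of the per-cell CPM, Ret in 3 DPI over uninjured endothelial-like cells was 0.224. The cause of these shifts was not tested. Asking for 30 UMIs, which compares fewer genes, called 467 genes higher and 375 lower in Schwann-like cells (919 and 781 at 10 UMIs) and 605 and 270 in endoneurial-like cells (1026 and 503). The 3-fold calls of Gfra1 in epineurial/perineurial-like cells held in 7 of 9 alternatives against neonatal FACS and in 3 of 9 against neonatal beads, that of Ret against neonatal FACS in 4 of 8 and against the uninjured nerve in 6 of 8. Leaving out the cell with most UMIs of a gene was chosen after seeing the data. Perineurial-like cells could not be told apart in neonatal libraries with at most 5% mitochondrial UMIs, with library-size normalization or without doublet removal, and in the bead library clustered alone. Depth limits Artn and Nrtn most, with 18 and 55 UMIs in filtered cells, and Gdnf and Gfra3 also had under 100 each.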
